A study of Mus musculus with 12 samples.

Results

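The receptors and transcription factors of the Hedgehog pathway were followed in mouse embryonic stem (ES) cells that were differentiating towards neural cells while a Dmrt5 transgene was, per the labels, induced or not. The 9 genes are the receptor Ptch1, the decoy receptor Hhip, the co-receptors Gas1, Cdon and Boc, the transducer Smo and the transcription factors Gli1, Gli2 and Gli3. They were chosen by symbol, with earlier results of these data known. Every probe set whose single gene symbol in the platform annotation is one of these names was taken, which gave 24 probe sets for 9 of the 18193 genes measured: 3 for Ptch1, 4 for Hhip, 3 for Gas1, 2 for Cdon, 3 for Boc, 3 for Smo, 1 for Gli1, 2 for Gli2 and 3 for Gli3.

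RNA of 12 samples was measured on Affymetrix arrays, in 6 groups of 2. The groups were rtTA-Dmrt5 cells at day 7 with and without doxycycline (Dox), rtTA-Dmrt5 cells at day 9 with and without Dox, and cells of the parental rtTA line at day 7 with and without Dox. All cells carried rtTA, a transcriptional activator that works in the presence of Dox, and rtTA-Dmrt5 is the tetracycline-inducible line made to express Dmrt5, a zinc-finger transcription factor now named Dmrta2. All cells were grown as a monolayer in N2B27, a serum-free medium that favours neural fates, and Dox was given from day 5, so that cells had 2 days of it at day 7 and 4 days at day 9. Each line is a single ES cell line. The sources used here do not give the sequence of the transgene, and the parental line was measured at day 7 alone, so a Dox response at day 9 has no parental counterpart.

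In the Hedgehog pathway, the ligands Shh, Ihh and Dhh bind Ptch1, which otherwise keeps Smo silent. Freed Smo acts at the primary cilium and turns the Gli factors towards activation: Gli2 is the main activator, Gli3 mostly a repressor, and Gli1 an activator whose own gene is a target of the pathway, as are Ptch1 and Hhip. Gas1, Cdon and Boc help the ligand to bind, and in the mouse neural tube their genes are turned down where Shh signalling is strong. In that tissue Shh from the notochord and floor plate sets the ventral cell identities.

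Each value below is a log2 value minus the median of its probe set over the 12 arrays, as deposited, so it shows differences between arrays and carries no level. A change is a log2 fold change with its standard error (SE) after the ± sign, estimated by limma over all 12 arrays and 45037 probe sets, with n = 2 arrays in each group. A probe set is called at a Benjamini-Hochberg adjusted p under 0.05 over all 45037, and a gene is called where at least 1 of its probe sets is. How bright a probe set was can be read coarsely from the spacing of its deposited digits: among the 24, the median log2 level was 8 or more for 7, between 4 and 8 for 10 and between 2 and 4 for 7. Whether the 2 replicates of a group came from separate cultures is not stated, so the p-values rest on the spread between these arrays, and this spread may be technical. In these bulk samples, fewer cells of a type and less RNA per cell cannot be told apart.

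The gene carried by the transgene goes against the labels. Dmrta2 has 1 probe set, with values of -0.14 and -0.95 in rtTA-Dmrt5 arrays labelled +Dox at day 7, against 1.91 and 1.85 in those labelled -Dox, and of -1.07 and -1.92 at day 9, against 1.07 and 1.16. Its change was -2.43 ± 0.33 at day 7 (limma adjusted p = 0.00318) and -2.61 ± 0.33 at day 9 (limma adjusted p = 0.000823). The parental arrays gave 0.41 and -0.28 with Dox and -0.22 and 0.14 without. Between the lines at day 7, rtTA-Dmrt5 minus rtTA was 1.92 ± 0.33 in arrays labelled -Dox (limma adjusted p = 0.00323). In those labelled +Dox it was -0.61 ± 0.33 and was not called (limma adjusted p = 0.287). The probe set may lie outside the part of the gene that the transgene holds and then checks nothing, but every direction below rests on the labels, and "+Dox" and "-Dox" mean the arrays so labelled. The 18 hybridisation spike-in probe sets, which report the array and not the cells, also moved. In rtTA-Dmrt5 cells their mean was -0.79 and -0.66 in day 9 +Dox arrays, against 0.01 and 0.17 in -Dox arrays. At day 7 it was -0.34 and -0.02 with Dox, against 0.10 and 0.19 without. In the parental line it was -0.08 and -0.23 with Dox, against 0.19 and 0.08 without. The 3 prime minus 5 prime difference of Actb, which moves with RNA quality, was 0.23 and 0.20 in day 9 +Dox arrays, against 0.01 and -0.05 in -Dox arrays. At day 7 it was 0.05 and -0.13 in rtTA-Dmrt5 +Dox arrays, against 0.06 and 0.05 in -Dox arrays, and the 4 parental arrays lay lower, between -0.20 and -0.36. The part of these values in the results was not tested.

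Of 24 probe sets, 4 were called in the day 7 Dox response of rtTA-Dmrt5 cells (3.05% of all probe sets were), 2 higher and 2 lower, in Cdon, Gli1 and Boc. In the day 9 response 8 were called (18.3% of all), 6 higher and 2 lower: Cdon, Gli1, Hhip, Gas1 and Smo rose and Boc fell. The shares were 16.7% and 33.3% of the 24, both above the share of all probe sets. That share rises with level: without the probe sets of level under 4, 1844 of 27096 were called at day 7 and 8853 of 27096 at day 9. The members were chosen with earlier results of these data known. Whether their share departs from that of probe sets of like level was not tested. The median change of the 24 was 0.06 at day 7 and 0.20 at day 9, against 0.01 and -0.02 over all probe sets. In the parental rtTA line 0 of 24 were called, and 0% of all probe sets were. At an unadjusted p under 0.05, limma there gave 1 of the 24, Cdon 1421452_at, and 2323 of all.

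**Figure D1:**
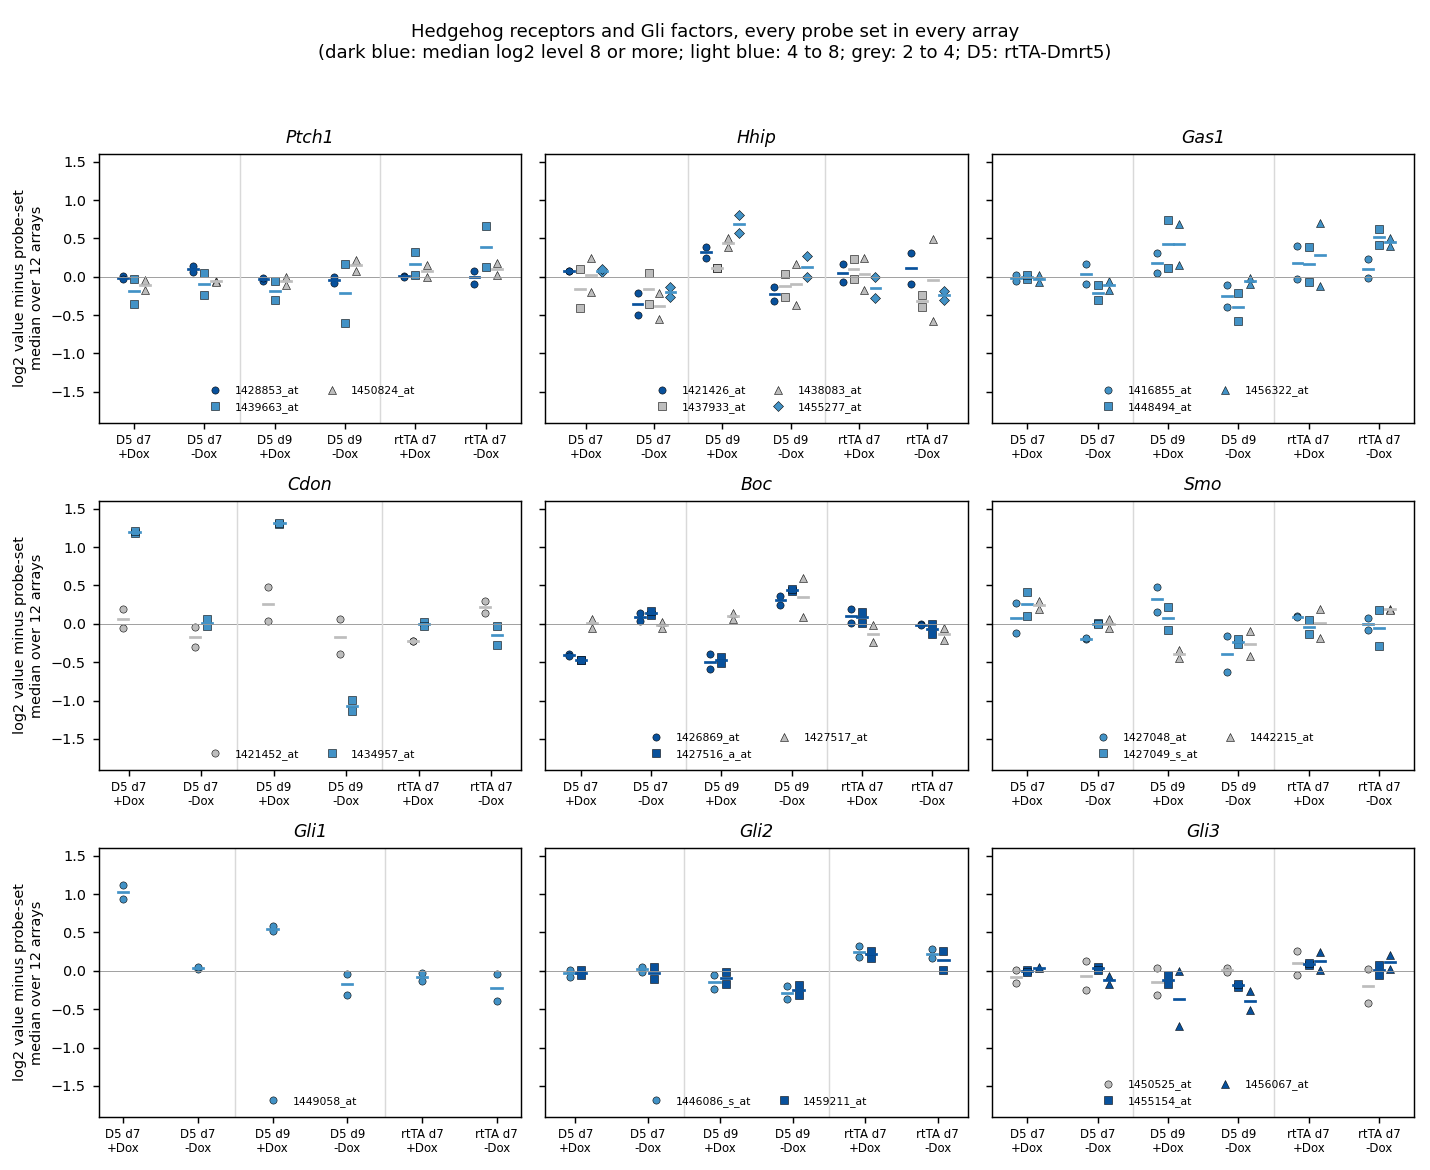
Deposited log2 values, minus the median of each probe set over the 12 arrays, of all 24 probe sets in every array; points are single arrays, short bars are means of the 2 arrays, D5 stands for rtTA-Dmrt5, and colour gives the level class. Cdon 1434957_at sits at 1.18 to 1.32 in the 4 rtTA-Dmrt5 +Dox arrays and at or below 0.07 in the other 8, and both bright Boc probe sets are below -0.39 in those 4 arrays.

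Cdon, a cell-surface co-receptor that binds Shh together with Ptch1, had the largest change of the 9 genes at both days. Its probe set 1434957_at had values of 1.18 and 1.21 in day 7 rtTA-Dmrt5 +Dox arrays, against -0.03 and 0.07 in -Dox arrays. At day 9 the values were 1.30 and 1.32 in +Dox arrays, against -0.9996 and -1.13 in -Dox arrays. The parental line gave 0.02 and -0.03 with Dox and -0.02 and -0.27 without. Groups of 2 arrays often fail to overlap: 14 of the 24 probe sets did so at day 7, 15 at day 9 and 7 in the parental line. The share over all probe sets was not computed. The groups of Cdon 1434957_at did not overlap at either day in rtTA-Dmrt5 cells, and the parental groups did. The change was 1.18 ± 0.11 at day 7, a 2.26-fold increase (limma adjusted p = 0.000461), and 2.38 ± 0.11 at day 9, a 5.19-fold increase (limma adjusted p = 8.31e-06). The parental line gave a change of 0.15 ± 0.11 (95% interval -0.11 to 0.40).

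Between the lines, 2 of 24 probe sets were called in the difference of the day 7 Dox responses (1.04% of all), 1 each of Cdon and Boc. The Cdon response was larger in rtTA-Dmrt5 than in rtTA cells by 1.03 ± 0.16 (limma adjusted p = 0.0167). It missed the threshold when any 1 of 6 of the 8 arrays was left out, each of the 4 rtTA-Dmrt5 arrays among them, and held without rtTA +Dox replicate 1 or rtTA -Dox replicate 2 (limma adjusted p 0.0225 to 0.083 over the 8). Between the days, 1 of 24 was called (0.639% of all): the Cdon response was larger at day 9 than at day 7 by 1.20 ± 0.16 (limma adjusted p = 0.0182). That call held without day 9 +Dox replicate 2 and was lost without any other of the 8 arrays (limma adjusted p 0.029 to 0.0854 over the 8).

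Most of that step lay in the arrays without Dox. Among -Dox rtTA-Dmrt5 arrays, Cdon 1434957_at was lower at day 9 than at day 7 (change -1.08 ± 0.11, limma adjusted p = 0.000564), and among +Dox arrays it differed by 0.11 ± 0.11 (95% interval -0.14 to 0.37). These comparisons share arrays with the Dox responses and are not separate evidence.

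The other Cdon probe set, 1421452_at, lies in the level class of 2 to 4 and was not called in any of the 9 comparisons. Its values were 0.48 and 0.04 in day 9 +Dox arrays, against -0.40 and 0.07 in -Dox arrays, with a change of 0.43 ± 0.19 (95% interval -0.01 to 0.86). At day 7 its change was 0.24 ± 0.19. Its groups overlapped at both days.

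Gli1, the Gli factor whose gene is itself a pathway target, has 1 probe set, 1449058_at. It had values of 1.13 and 0.94 in day 7 rtTA-Dmrt5 +Dox arrays, against 0.03 and 0.04 in -Dox arrays. At day 9 it had 0.52 and 0.58 in +Dox arrays, against -0.04 and -0.31 in -Dox arrays. All 4 rtTA-Dmrt5 +Dox arrays lay above the other 8 arrays, of which the parental ones gave -0.03 and -0.14 with Dox and -0.40 and -0.04 without. Gli1 rose by 0.995 ± 0.14 at day 7, or 1.99-fold (limma adjusted p = 0.00462), and by 0.72 ± 0.14 at day 9, or 1.65-fold (limma adjusted p = 0.00765). Without day 9 -Dox replicate 2 the day 9 call was lost (limma adjusted p = 0.0544).

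The parental change of Gli1 was 0.14 ± 0.14 (95% interval -0.19 to 0.46). The difference between the lines in the day 7 response was 0.86 ± 0.20 and missed the threshold (limma adjusted p = 0.0986). With the deposited values quantile normalized it was 1.02 and passed (limma adjusted p = 0.0289). Gli1 also passed in that difference with the probe sets of each gene averaged. The difference between the days was -0.27 ± 0.20 (limma adjusted p = 0.594).

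Boc, the co-receptor most similar to Cdon, went the other way. Its probe set 1427516_a_at had values of -0.48 and -0.47 in day 7 rtTA-Dmrt5 +Dox arrays, against 0.12 and 0.17 in -Dox arrays. At day 9 they were -0.43 and -0.51 in +Dox arrays, against 0.42 and 0.45 in -Dox arrays. In the parental line they were 0.16 and 0.01 with Dox and -0.01 and -0.14 without, so the 4 rtTA-Dmrt5 +Dox arrays were the lowest of the 12. The change was -0.62 ± 0.10 at day 7, or 1.53-fold lower (limma adjusted p = 0.0106), and -0.91 ± 0.10 at day 9, or 1.88-fold lower (limma adjusted p = 0.000487).

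The second bright Boc probe set, 1426869_at, changed by -0.50 ± 0.11 at day 7 (limma adjusted p = 0.0492) and by -0.80 ± 0.11 at day 9 (limma adjusted p = 0.00152). Probe sets of a gene read the same RNA and are not replicates. Both day 7 calls were lost without any 1 of the 4 day 7 rtTA-Dmrt5 arrays (limma adjusted p 0.066 to 0.101 for 1427516_a_at and 0.143 to 0.285 for 1426869_at) and with only those 4 arrays fitted. The day 9 calls of both held in each such fit.

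The Dox response of Boc 1427516_a_at at day 7 was lower in rtTA-Dmrt5 than in rtTA cells (difference -0.77 ± 0.15, limma adjusted p = 0.0389). This call was lost without any 1 of the 8 arrays (limma adjusted p 0.0577 to 0.169). The third Boc probe set, 1427517_at, of level class 2 to 4, changed by 0.03 ± 0.16 at day 7 and -0.24 ± 0.16 at day 9 and was not called.

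**Figure D2:**
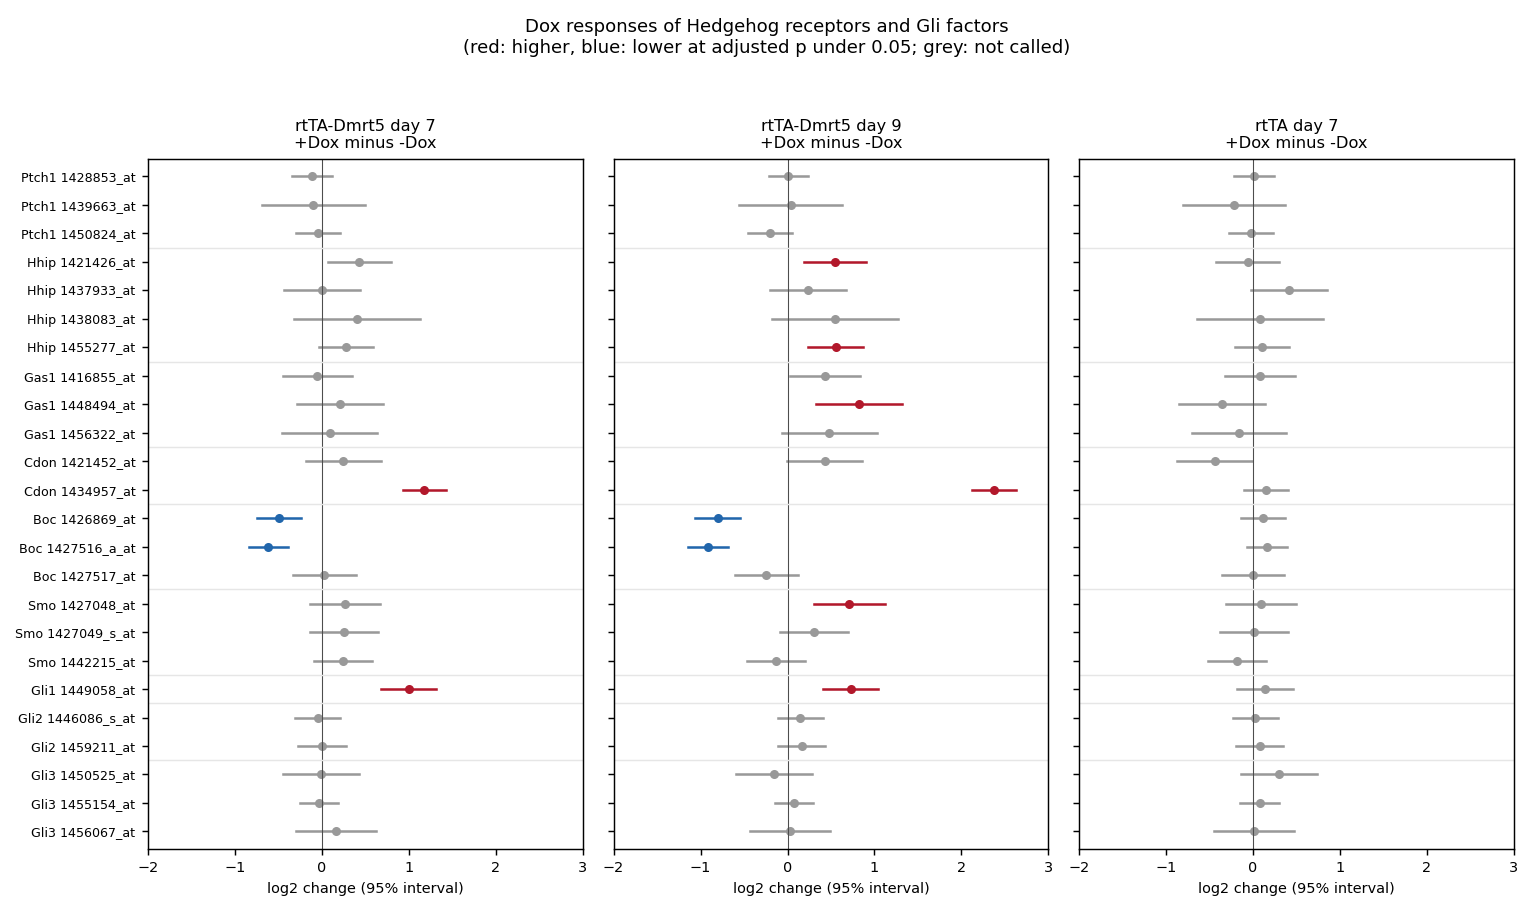
Dox response (log2 change, +Dox minus -Dox, with its 95% interval from limma) of each of the 24 probe sets in rtTA-Dmrt5 cells at day 7 and day 9 and in rtTA cells at day 7. Cdon 1434957_at (1.18 and 2.38) and Gli1 (0.995 and 0.72) were called higher and 2 Boc probe sets lower at both days, 3 more genes were called at day 9, and the parental panel holds no call.

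Gas1, the co-receptor anchored in the membrane by a lipid, was called at day 9 through 1 of its 3 probe sets. Gas1 1448494_at had values of 0.12 and 0.74 in day 9 +Dox arrays, against -0.57 and -0.21 in -Dox arrays. The +Dox arrays were both higher but far apart. The change was 0.82 ± 0.22, or 1.77-fold (limma adjusted p = 0.0296). It lost the call without day 9 +Dox replicate 2 or without day 9 -Dox replicate 1 (limma adjusted p 0.0164 to 0.179 over the 4 arrays left out in turn). The other Gas1 probe sets changed by 0.43 ± 0.18 and 0.48 ± 0.24 at day 9 and were not called, and at day 7 the 3 changes ran from -0.06 to 0.21.

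Hhip, which binds and sequesters Hedgehog ligands, was called at day 9 through 2 of 4 probe sets. Hhip 1455277_at had values of 0.80 and 0.57 in day 9 +Dox arrays, against 0.00 and 0.26 in -Dox arrays, a change of 0.55 ± 0.14 (limma adjusted p = 0.0229). Hhip 1421426_at had 0.39 and 0.25 in +Dox arrays, against -0.13 and -0.32 in -Dox arrays, a change of 0.55 ± 0.16 (limma adjusted p = 0.0419). Neither pair of groups overlapped, as in 15 of the 24 probe sets at day 9. The call of 1421426_at was lost without any 1 of the 4 day 9 arrays (limma adjusted p 0.0712 to 0.182). That of 1455277_at was lost without day 9 +Dox replicate 1 or -Dox replicate 1 (limma adjusted p 0.0279 to 0.154 over the 4).

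The remaining Hhip probe sets, both of level class 2 to 4, changed by 0.23 ± 0.20 and 0.55 ± 0.33 at day 9. At day 7 the 4 Hhip changes ran from -0.001 to 0.43, and none was called.

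Smo, the membrane protein that passes the signal on, was called at day 9 through 1 of 3 probe sets. Smo 1427048_at had values of 0.48 and 0.15 in day 9 +Dox arrays, against -0.16 and -0.62 in -Dox arrays, a change of 0.71 ± 0.18, or 1.64-fold (limma adjusted p = 0.0236). The call was lost without day 9 +Dox replicate 1 or -Dox replicate 2 (limma adjusted p 0.0202 to 0.145 over the 4), and with the 3 probe sets averaged the change was 0.29. The other Smo probe sets changed by 0.31 ± 0.18 and -0.13 ± 0.15, so the probe sets of Smo did not share a direction. With only the day 9 arrays fitted, Cdon, Boc and Gli1 kept a call, and Hhip, Gas1 and Smo had none.

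Ptch1, Gli2 and Gli3 were not called in any of the 9 comparisons. Ptch1 is the receptor and, like Gli1, a gene that the pathway itself turns on. Its brightest probe set, 1428853_at, had values of 0.01 and -0.03 in day 7 +Dox arrays, against 0.14 and 0.07 in -Dox arrays. At day 9 it had -0.05 and -0.01 in +Dox arrays, against -0.08 and -0.002 in -Dox arrays. Its change was -0.12 ± 0.10 at day 7 (95% interval -0.34 to 0.11) and 0.01 ± 0.10 at day 9 (95% interval -0.22 to 0.23). The Gli1 interval at day 9, 0.40 to 1.05, lies above the whole of that interval, as it does at day 7 (0.67 to 1.32). At day 9 the Gli1 interval overlaps that of Ptch1 1439663_at (-0.555 to 0.624) and not that of 1450824_at (-0.453 to 0.055). A difference between Gli1 and Ptch1 was not tested.

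The other Ptch1 probe sets changed by -0.10 ± 0.26 and -0.04 ± 0.11 at day 7 and by 0.03 ± 0.26 and -0.20 ± 0.11 at day 9. Of these, 1439663_at varied most between replicates, with -0.60 and 0.17 in day 9 -Dox arrays.

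Gli2, the main activator, gave values between -0.37 and 0.32 over the 12 arrays in both probe sets. Its Dox changes were -0.05 ± 0.12 and 0.00 ± 0.12 at day 7, and 0.15 ± 0.12 and 0.16 ± 0.12 at day 9. The 95% intervals at day 9 ended at 0.41 and 0.44. Gli3, the main repressor, changed by between -0.03 and 0.17 at day 7 and between -0.15 and 0.08 at day 9 over its 3 probe sets. The tightest of them, 1455154_at, allowed -0.25 to 0.19 at day 7 and -0.15 to 0.30 at day 9. Gli3 1456067_at had -0.72 in day 9 +Dox replicate 1 and -0.01 in replicate 2, the widest gap within a group among the Gli probe sets. With that replicate 2 left out, its day 9 minus day 7 change among +Dox arrays was -0.77 and was called.

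Day 9 was next compared with day 7 in rtTA-Dmrt5 cells. Among rtTA-Dmrt5 +Dox arrays, 2 of 24 were called between day 9 and day 7 (9.10% of all), a share of 8.3%, near that of all probe sets. Hhip 1455277_at was higher at day 9, with 0.80 and 0.57, against 0.06 and 0.10 at day 7 (change 0.61 ± 0.14, limma adjusted p = 0.0254). Smo 1442215_at, of level class 2 to 4, was lower at day 9, with -0.44 and -0.35, against 0.29 and 0.19 at day 7 (change -0.63 ± 0.15, limma adjusted p = 0.028). Gli1 was at -0.48 ± 0.14 in that comparison and was not called (limma adjusted p = 0.069), though it passed after quantile normalization (-0.70, limma adjusted p = 0.0121) and without the probe sets of level under 4 (limma adjusted p = 0.0406). Both calls rest on few arrays: the Smo call was lost without any 1 of the 4 (limma adjusted p 0.0651 to 0.148), and the Hhip call was lost without 3 of the 4 and held without day 9 replicate 2 (limma adjusted p 0.0356 to 0.129).

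Among -Dox arrays, 1 of 24 was called between day 9 and day 7, or 4.2% (7.65% of all), the Cdon probe set described above. The median change of the 24 was 0.03 with Dox and -0.13 without, against -0.02 and -0.01 over all probe sets.

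Between the lines at day 7, 4 of 24 were called with Dox (14.6% of all) and 1 of 24 without (18.7% of all), or 16.7% and 4.2% of the 24; the first is near the share of all probe sets and the second below it. With Dox, rtTA-Dmrt5 cells had more Cdon than rtTA cells (1434957_at, 1.20 ± 0.11, limma adjusted p = 8.34e-05) and more Gli1 (1.11 ± 0.14, limma adjusted p = 0.000582), and less Boc (-0.56 ± 0.10 for 1427516_a_at, limma adjusted p = 0.00485, and -0.51 ± 0.11 for 1426869_at, limma adjusted p = 0.0143). Of these, 1426869_at lost its call without any 1 of 3 of the 4 arrays and kept it without rtTA +Dox replicate 2 (limma adjusted p 0.0223 to 0.0955 over the 4). The same probe sets were not called between the lines without Dox, where Cdon differed by 0.16 ± 0.11, Gli1 by 0.25 ± 0.14 and Boc by 0.22 ± 0.10 and 0.11 ± 0.11.

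Without Dox, Gas1 1448494_at was called: it had -0.11 and -0.31 in rtTA-Dmrt5 arrays, against 0.62 and 0.41 in rtTA arrays (change -0.72 ± 0.22, limma adjusted p = 0.0474). That call was lost without any 1 of the 4 arrays (limma adjusted p 0.0892 to 0.222).

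**Figure D3:**
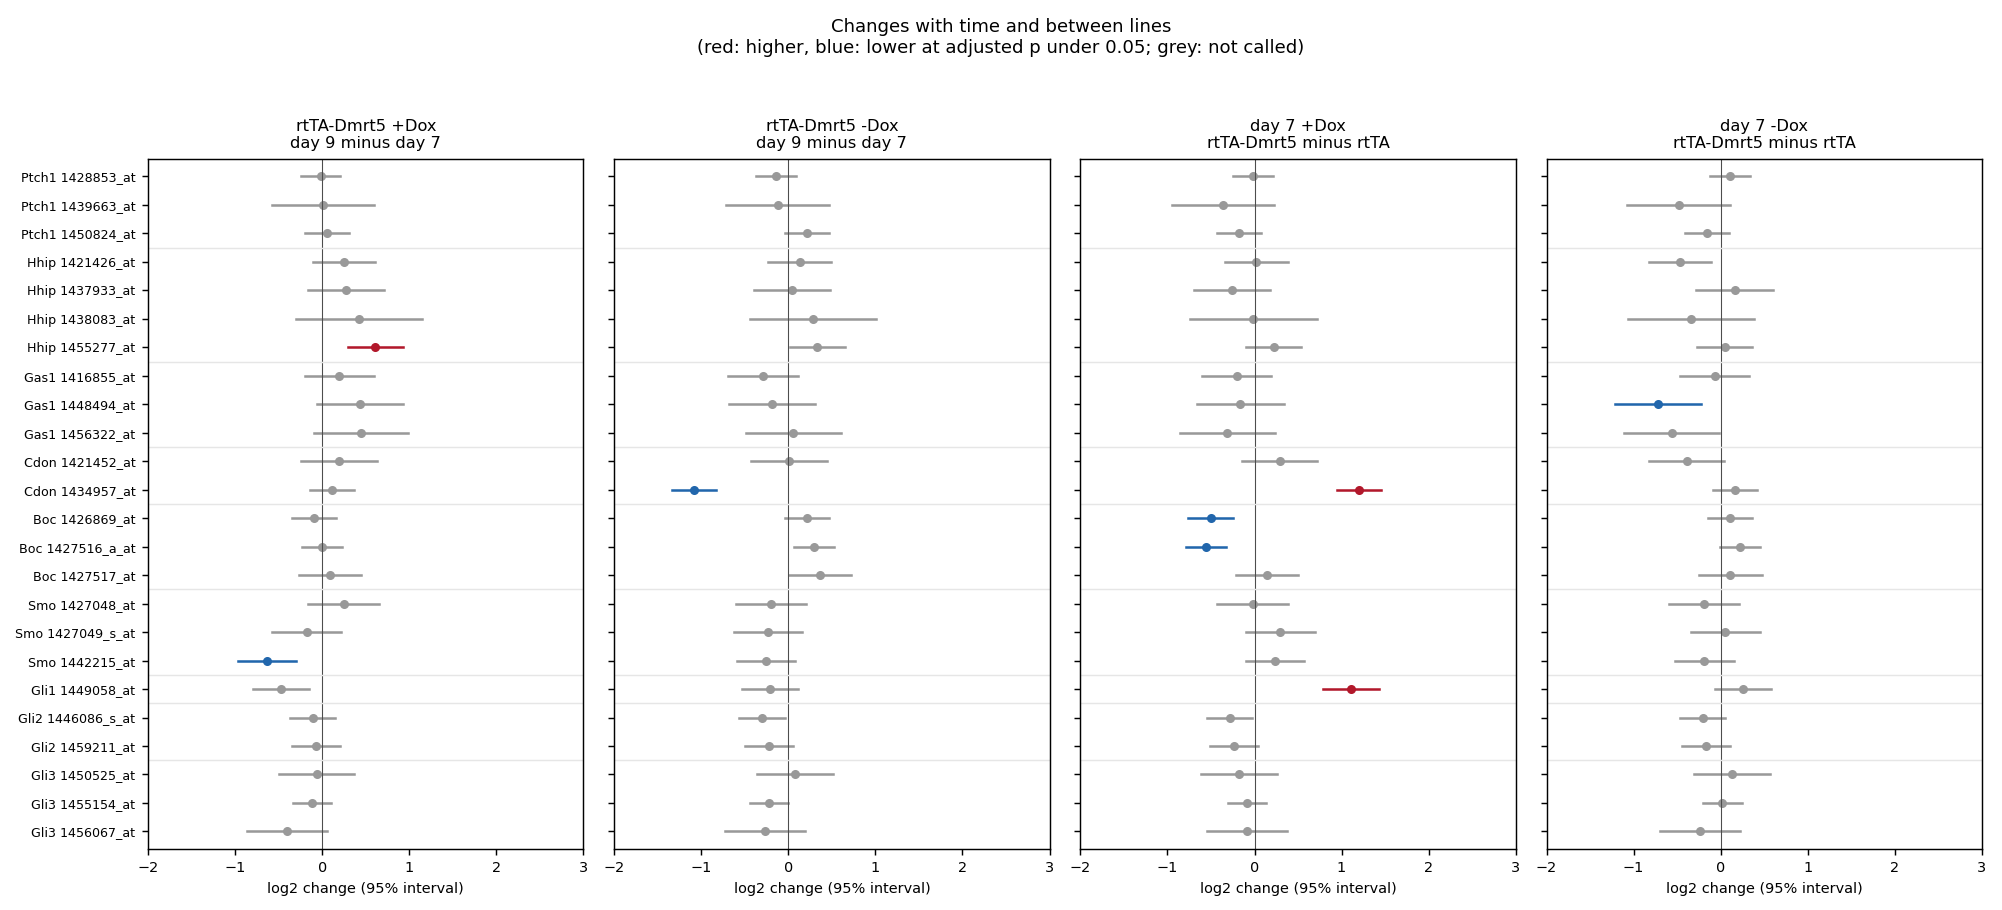
Log2 changes with their 95% intervals (limma) of the 24 probe sets between day 9 and day 7, with and without Dox, and between rtTA-Dmrt5 and rtTA cells at day 7, with and without Dox. Cdon 1434957_at was lower at day 9 in the arrays without Dox (-1.08) and higher in rtTA-Dmrt5 cells in the arrays with Dox (1.20).

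Of the other genes of the pathway, the ligands came first. In these lists a gene counts as called through any of its probe sets, which number between 12 and 57 in a list. Over all probe sets 3.05% were called at day 7 and 18.3% at day 9. With the probe sets of a gene averaged, 1097 and 4518 of 18193 genes were. Whether a list departs from these shares was not tested. Of 7 genes for ligands and their release, 1 rose and 1 fell at day 7, and 1 rose and 2 fell at day 9; the median change over their probe sets was -0.04 and -0.06, against 0.01 and -0.02 over all probe sets. Shh 1436869_at had -1.46 and -1.43 in day 7 +Dox arrays, against 0.42 and -0.01 in -Dox arrays, and -1.28 and -0.94 at day 9, against 0.34 and 0.41. It fell at day 7 (change -1.65 ± 0.30, limma adjusted p = 0.0154) and at day 9 (change -1.49 ± 0.30, limma adjusted p = 0.00761). The other Shh probe set, 1427571_at, was not called. Ihh, better known from cartilage and gut endoderm, rose by 0.89 ± 0.19 at day 7 and 1.39 ± 0.19 at day 9, and Dhh fell at day 9 in 1 of 2 probe sets (1434959_at, level class 2 to 4, -0.66 ± 0.20, limma adjusted p = 0.0481), while the brighter 1422127_at stood at -0.06 ± 0.23 and was not called.

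Of 21 signal transduction genes other than the 9, 0 were called by limma at day 7 (2 at an unadjusted p under 0.05), and 4 rose and 2 fell at day 9. Those that rose were Gpc3, a glypican that competes with Ptch1 for ligand (1.33 ± 0.20), Evc2, a ciliary partner of Smo (0.62 ± 0.11), Sufu, which holds the Gli factors inactive (0.44 ± 0.11), and Prkar1a, a regulatory subunit of protein kinase A (0.46 ± 0.12). Those that fell were the Gli kinase Gsk3b (-0.63 ± 0.12) and Stk36 (-0.41 ± 0.12). Of 11 cilium genes 0 were called by limma at day 7 (0 also at an unadjusted p under 0.05), and at day 9 2 rose and 3 fell, namely Dync2h1 (0.63 ± 0.14) and Ift52 (0.46 ± 0.10) higher, and Tctn1 (-0.46 ± 0.12), Inpp5e (-0.31 ± 0.10, in 1 of 2 probe sets) and the cilium motor subunit Kif3a (-0.76 ± 0.18 and -0.39 ± 0.10 in its called probe sets) lower. The median change was -0.01 at both days for the transduction list, and -0.06 at day 7 and 0.05 at day 9 for the cilium list.

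Of 11 genes that Shh turns on in the ventral neural tube, 1 rose and 2 fell at day 7, and 4 rose and 1 fell at day 9, with median changes of 0.15 and -0.09. Foxa2, listed here for the floor plate, rose at both days (1.25 ± 0.20 and 1.74 ± 0.20). In the same contrasts 1 of 8 mesoderm and endoderm markers rose at day 7 and 6 at day 9. Which cells carried the Foxa2 RNA was not tested. Olig2, which marks motor neuron progenitors, fell at day 7 (-1.68 ± 0.20, limma adjusted p = 0.00167) and rose at day 9 (0.92 ± 0.20, limma adjusted p = 0.0132), a difference of 2.60 ± 0.29 (limma adjusted p = 0.0118). Nkx6-1 (1.08 ± 0.31) and Sim1 (0.93 ± 0.23) rose at day 9, Olig1 fell at day 7 (-0.80 ± 0.12), and Ferd3l, of level class under 2, fell at day 9 (-0.39 ± 0.10).

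Of 11 genes used as general Gli targets, Ccnd2, a cell cycle regulator, rose at day 7, by up to 0.92 ± 0.11 in its 4 called probe sets, and no other was called. At day 9 Ccnd2 and Cdk6 rose, Ccnd1 and Jag2 fell, and Sfrp1 had a probe set called in each direction (0.95 ± 0.22 and -0.87 ± 0.20); the median changes of this list were 0.05 and 0.13. Of 9 genes kept to the dorsal or intermediate neural tube by Shh, 5 fell at both days: Pax3, Pax6, Pax7, Irx3 and Dbx1. The median changes of the 9 were -0.61 at day 7 and -0.58 at day 9. Pax3 fell in all 3 probe sets, with day 7 changes between -1.74 (1441743_at) and -2.38 (1420389_at). Msx1 (0.71 ± 0.22) and Msx2 (0.38 ± 0.12) rose at day 9. In the parental line limma called 0 of all 45037 probe sets, so the 0 called genes of these 6 lists say nothing about the lists. At an unadjusted p under 0.05, limma there gave between 0 and 3 genes in each list, and 2323 of all probe sets.

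**Figure D4:**
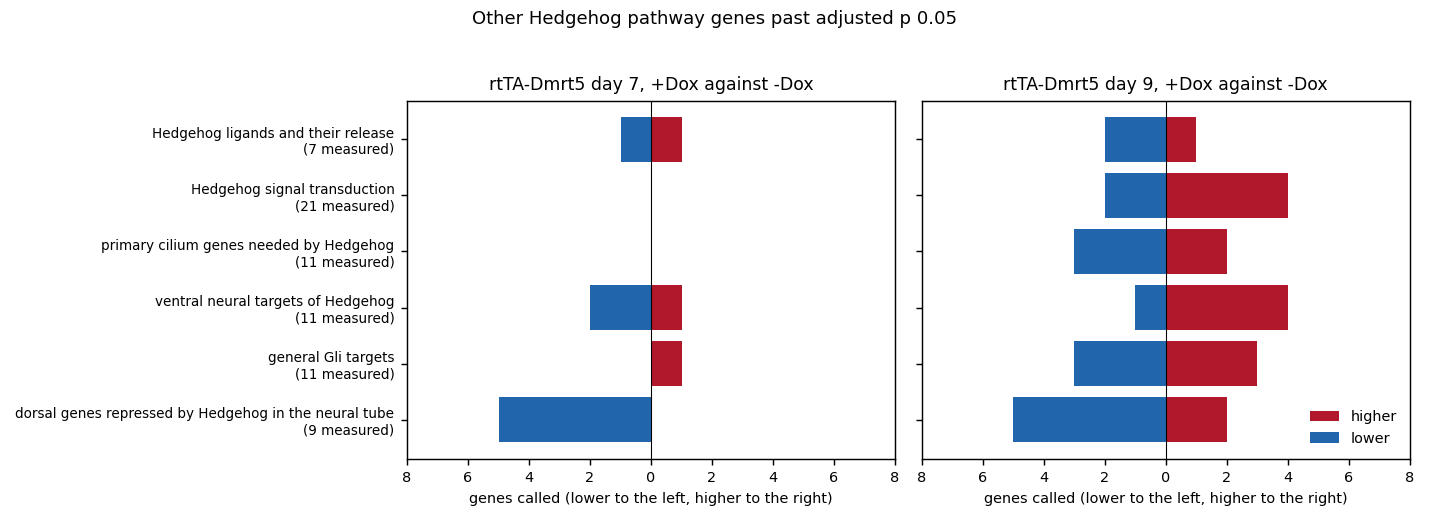
Number of genes in each of 6 lists of other Hedgehog pathway genes that were called lower (left of 0) or higher (right of 0) in +Dox against -Dox rtTA-Dmrt5 arrays at day 7 and day 9; a gene with probe sets called in both directions counts in each. The dorsal list has 5 genes lower at both days, and the transduction and cilium lists have no call at day 7.

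Cell type markers moved with the same contrast. Here too a gene counts through any of its probe sets, and 3.05% and 18.3% of all probe sets were called at day 7 and day 9. Of 10 neuron markers 8 fell at both days; their mean was -0.90 and -1.03 in day 7 +Dox arrays, against -0.20 and -0.20 in -Dox arrays, and -0.54 and -0.38 at day 9, against 0.30 and 0.37. Of 6 markers of simple epithelium 2 rose at day 7 and 5 at day 9, with means of 0.55 and 0.63 at day 7 in +Dox arrays, against -0.15 and -0.10, and of 0.84 and 0.60 at day 9, against -0.33 and -0.56. Of 8 mesoderm and endoderm markers, 1 rose at day 7 (Apoa1) and 6 at day 9 (Afp, Apoa1, Foxa3, Gata4, Gata6 and Sox17). Of that list, Mixl1 and Ttr were called at neither day, and T was not measured. Of 8 markers of undifferentiated ES cells 3 and 5 rose. Of 8 neural progenitor markers, 8 had a probe set at level 8 or more; 4 fell at day 7, and 1 rose and 2 fell at day 9. Of neural crest markers 2 of 6 fell at day 7, and 2 rose and 2 fell at day 9; of mesenchyme markers 1 of 6 rose and 2 fell at both days; of glia markers 1 of 5 rose at both days. Values carry no level, so none of these markers can be said to be absent. Their part in the changes of Cdon, Gli1, Boc, Hhip, Gas1 and Smo was not tested.

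The RefSeq promoter table, with windows of 250 bases before to 50 after each start on GRCm38.p6, held 7 of the 9 genes; Gli1 and Boc were not matched. The 9-base Gli consensus GACCACCCA, searched on both strands, was in none of the 7 windows and in 83 of all 32851 (0.25%). Its inner letters CCACCC, a motif chosen after that result was seen and contained in the longer one, were in 4 of the 7, namely Gli2, Gli3, Hhip and Smo, and in 31.5% of all windows. The bases before the start are shown for the gene with the largest Dox response and for the 2 pathway members called at day 9 that hold the inner motif, 5′ to 3′ along the gene, with CCACCC on either strand in capitals. The windows are GRCm38.p6 chr9:35451826-35452075, plus strand, for Cdon; chr8:80058009-80058258, minus strand, for Hhip; and chr6:29735247-29735496, plus strand, for Smo.
Cdon: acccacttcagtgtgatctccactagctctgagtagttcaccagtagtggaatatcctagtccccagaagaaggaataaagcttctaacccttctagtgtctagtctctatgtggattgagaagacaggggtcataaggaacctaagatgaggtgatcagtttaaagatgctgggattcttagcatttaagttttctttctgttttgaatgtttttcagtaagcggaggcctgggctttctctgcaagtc
Hhip: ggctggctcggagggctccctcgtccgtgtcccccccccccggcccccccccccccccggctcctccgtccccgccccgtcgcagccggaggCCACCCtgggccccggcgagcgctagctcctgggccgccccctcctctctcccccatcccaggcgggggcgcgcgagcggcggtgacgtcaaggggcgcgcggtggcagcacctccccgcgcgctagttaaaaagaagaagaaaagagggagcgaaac
Smo: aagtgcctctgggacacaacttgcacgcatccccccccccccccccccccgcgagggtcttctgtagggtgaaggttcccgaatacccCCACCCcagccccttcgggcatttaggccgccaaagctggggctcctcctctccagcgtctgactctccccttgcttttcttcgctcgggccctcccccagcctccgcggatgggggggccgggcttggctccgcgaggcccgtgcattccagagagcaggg
The Cdon stretch has no CCACCC and 42.8% G and C, the lowest share of the 7 members, whose other shares run from 58.8% for Gas1 to 78.4% for Ptch1. The Hhip match ends 152 bases before the start and the Smo match 156 bases before it. A match of letters is a description and not a binding site, and its absence from this window says nothing about the factor.

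The genes most like each called member were named by the smallest root mean square difference of values over the 12 arrays. For Cdon these were Ston2 (0.32), the desmosome protein gene Dsp (0.32) and the signalling ligand Wnt5a (0.34), which changed at day 9 by 1.80, 2.27 and 1.84. For Gli1 they were Trak1, Prdm16 and Sorl1 (0.17 each), and for Boc Adgrl2 (0.09), 2610307P16Rik and Klf7 (0.11 each). Adgrl2 changed by -0.65 at day 7 and -0.86 at day 9, against -0.62 and -0.91 for Boc. For Hhip they were Ugp2, Adcy8 and Emx1, for Gas1 Cyrib, Rab14 and Mtx2, and for Smo Tmem134, 4933406K04Rik and Kpna6, all at 0.11 to 0.13. The differences were larger for Cdon than for the other called members. This measure is not scaled to the spread of a probe set, and Cdon 1434957_at ran from -1.13 to 1.32. The sizes therefore cannot be compared between members.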

How the data were processed

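Per the labels' protocols, 5 ng of total RNA per sample was amplified (NuGEN Ovation) and labelled with biotin. The authors ran RMA on the arrays, per the submitters' processing notes, which name no version. Deposited values were taken as log2, the scale of RMA, and as larger for more RNA; each probe set is centred on its median over the 12 arrays (0 within 5e-07), which no source mentions. Array medians ran from -0.01 to 0.01, and the number of arrays limits the precision. Scanner files were not analysed here.

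Of 45101 probe sets, 64 controls were left out; 34945 had 1 symbol, 932 several and 9160 none. All 24 gene numbers were found in the RefSeq table, with symbols unchanged. The level class was read from the spacing of single-precision digits. limma 3.58.1 in R 4.3.3 fitted 6 group means per probe set, with eBayes (6 residual and 3.92 prior degrees of freedom), 9 comparisons and Benjamini-Hochberg adjustment within each, and was tested on simulated data. Python 3.11.15, pandas 2.3.3 and matplotlib 3.10.9 did the rest.

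All 9 members are named with every probe set, and called genes of the lists may be named beside their list's counts, with Dmrta2 and the 3 genes nearest each called member. Members and lists were chosen with earlier results of these data known. Alternatives were fits of only the arrays compared, replicate blocks, array weights, median centring, quantile normalization, gene averages, a level filter, adjusted p 0.01, 2-fold and each array left out.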

Additional observations from a re-analysis of the deposited data

Results flagged for a closer look

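In 3 cases a Dox response differed between groups by a test of the difference itself. The day 7 response of Cdon 1434957_at was larger in rtTA-Dmrt5 than in rtTA cells by 1.03 (limma adjusted p = 0.0167), with +Dox above -Dox in every pairing of rtTA-Dmrt5 arrays. The day 7 response of Boc 1427516_a_at differed between the lines by -0.77 (limma adjusted p = 0.0389), with a fall in rtTA-Dmrt5 cells. The response of Cdon 1434957_at was larger at day 9 than at day 7 by 1.20 (limma adjusted p = 0.0182); the arrays with Dox were alike at both days, and those without Dox were lower at day 9. With each of the 8 arrays left out in turn, the Cdon difference between the lines held in 2 of 8 fits. The Boc difference held in 0 of 8, and the Cdon difference between the days in 1 of 8. All 3 were also lost with a replicate block within line and day.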

How the results depend on the processing

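The calls that held in every fit run were those of Cdon 1434957_at in 4 comparisons (the Dox response at day 7 and day 9, the lines with Dox, and day 9 against day 7 in -Dox arrays), of Gli1 at day 7 and between the lines with Dox, and of Boc at day 9 (both probe sets) and between the lines with Dox (1427516_a_at), leaving aside the stricter thresholds. The number of member genes called was 3 in the day 7 Dox response and 1 at 2-fold, with 2 when any array was left out. At day 9 it was 6, against 3 with only the arrays compared, 3 at adjusted p 0.01 and 1 at 2-fold, and 4 to 5 with an array left out. In the parental line it was 0 in every fit. For the difference between the lines it was 2, against 3 with quantile normalization (Gli1 added), 1 with only the arrays compared, 1 at 2-fold, 0 at adjusted p 0.01 and 0 to 1 with an array left out. For the difference between the days it was 1, against 0 with quantile normalization, gene averages or adjusted p 0.01, and 0 to 1 with an array left out. Between days with Dox it was 2 (Hhip and Smo), against 3 with quantile normalization (Gli1 added), 2 with the level filter (Hhip and Gli1), 1 with gene averages (Gli1), 0 with only the arrays compared, at adjusted p 0.01 or at 2-fold, and 0 to 2 with an array left out. Between the lines without Dox it was 1, against 2 with quantile normalization or the level filter (Hhip added), 0 with gene averages, at adjusted p 0.01 or at 2-fold, and 0 to 1 with an array left out. With gene averages, the difference between the lines again gave 2 genes, Cdon and Gli1, and Boc was lost (limma adjusted p = 0.0912). Beyond the stricter thresholds, which remove calls by construction, the cause was not tested.

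The replicate numbers share only a number: over 15 pairs of groups the correlation of replicate differences ran from -0.166 to 0.167 (-0.061 for the day 7 Dox pair, 0.143 for day 9). With a replicate block over all arrays, the difference of Dox responses between the lines kept 1 gene (Cdon), the lines without Dox kept 0, and single probe sets lost were Boc 1426869_at at day 7 and Hhip 1421426_at at day 9 (limma adjusted p = 0.0521). With a replicate block within line and day, the differences of Dox responses between lines and between days both kept 0, Boc 1426869_at lost its day 7 call, and the day 9 response kept 5 of 6 genes: Hhip lost both probe sets (limma adjusted p = 0.065 for 1455277_at and 0.0757 for 1421426_at).

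Over all probe sets, the count called ran from 496 to 2666 for the day 7 response (1372 as reported), 1595 to 8853 for day 9 (8230), 0 to 1 for the parental line (0), 156 to 875 between the lines (468), 0 to 633 between the days (288), 962 to 5091 (4098) and 854 to 4458 (3447) for day 9 minus day 7 with and without Dox, and 2096 to 7775 (6595) and 1940 to 10084 (8408) for the lines with and without Dox. The 7 member probe sets of level class 2 to 4 gave 1 call in the 9 comparisons, Smo 1442215_at.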
